A study of Mus musculus with 4 samples.

Results

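Thrombospondins and glypicans are proteins that astrocytes release or display and that act on forming synapses. Their transcripts were followed here as 10 genes, Thbs1 to Thbs4 and Gpc1 to Gpc6, chosen by name from the 55467 gene IDs of the deposited tables. All 10 were found, each on 1 ID. The samples were RNA-seq libraries of primary astrocytes, grown from the cerebral cortex of mouse pups aged 1 to 3 days. There were 2 from wild-type mice, called WT, and 2 from mice without CD38, called CD38 KO, 4 in all. The labels describe 1 protocol for both genotypes, with 14 days in flasks in medium holding 10% fetal bovine serum, 12 h of shaking, replating and harvest 5 days later. CD38 is a surface enzyme that consumes NAD+, and by its title the series concerns the part of astrocyte CD38 in synapse formation and in the social memory of adults. The labels give no strain, no sex, no deleted exons and no word on whether replicates are separate animals or cultures. Loss of Cd38 and a strain difference between the genotypes therefore cannot be told apart here, and p-values measure the spread between these libraries, which may be technical.

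Thrombospondins are large secreted matrix proteins. Thbs1 and Thbs2 form one subgroup, which assembles as trimers, and Thbs3 and Thbs4 belong to the other, which assembles as pentamers. Those made by immature astrocytes are known to promote new excitatory synapses through the calcium channel subunit encoded by Cacna2d1, and the resulting synapses lack active AMPA receptors. Glypicans are heparan sulfate proteoglycans held at the cell surface by a lipid anchor. Gpc4 and Gpc6, released from astrocytes, are known to draw AMPA receptors to the surface of neurons, so the families are often described together as steps in the making of a working synapse.

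How alike the members are bears on whether short reads can tell them apart. Over the aligned bases of the longest coding sequences in GENCODE M21, Thbs1 and Thbs2 were 70.0% identical, and Gpc4 and Gpc6 were 69.2% identical, the closest pair of glypicans. The longest unbroken run of bases that any pair of thrombospondins shared in coding sequence was 26 bases, between Thbs1 and Thbs2, and for glypicans it was 17 bases, between Gpc4 and Gpc6. These runs are shown with the 20 coding bases on each side, in lower case with the bases that differ in capitals, from coding base 2294 to 2359 of Thbs1, 2297 to 2362 of Thbs2, and 464 to 520 of both Gpc4 and Gpc6.
Thbs1: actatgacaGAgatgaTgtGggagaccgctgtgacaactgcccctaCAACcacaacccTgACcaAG
Thbs2: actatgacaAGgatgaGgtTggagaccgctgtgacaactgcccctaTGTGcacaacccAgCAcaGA
Gpc4: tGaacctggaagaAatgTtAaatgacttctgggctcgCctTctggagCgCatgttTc
Gpc6: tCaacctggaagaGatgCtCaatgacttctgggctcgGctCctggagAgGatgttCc
In the 40 flanking positions the first pair differed at 13 and the second at 9. No stretch of 50 bases was shared between transcripts of any members, so the levels below do not mix one member with another for reads of that length or longer. The read length is not given in the sources used here.

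Some members share exons with other genes, and their values are less certain. Gpc2 shares 55.6% of its exon bases with Gm43720, annotated as protein-coding on the same strand, so the authors' estimate had to divide fragments between both. Gm43720 was listed at no more than 0.144 FPKM (fragments scaled to transcript length and library depth), against 6.38 to 7.94 FPKM for Gpc2. Gpc1 shares 18.9% of its exon bases with Ankmy1 on the opposite strand, and Thbs3 shares 6.59% with Mtx1, also on the opposite strand. Smaller overlaps with noncoding genes on the opposite strand cover 3.42% of the exon bases of Thbs1 and 2.40% of those of Gpc5. The libraries were stranded per the labels, but whether the authors' estimate used strand is not given in the sources used here. Gpc4, Gpc6, Gpc3, Thbs2 and Thbs4 share no annotated exon base with another gene.

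The labels held for the deleted gene, and the cultures carried astrocyte transcripts. Cd38 measured 3.13 and 3.45 FPKM in the WT pair and 0.0222 in each CD38 KO library. Depth, recovered from the steps of low values, was an estimated 26835800 to 29092600 fragments per library. Of 12 astrocyte markers, 11 were above the level at which genes were tested, led by Glul (glutamine synthetase) at 1154 to 1701 FPKM and Gfap at 1198 to 1390 FPKM, while Gjb6 stayed at no more than 0.538 FPKM. Summed over the list, astrocyte markers stood at 4739 and 4794 FPKM in WT libraries against 3919 and 4021 in CD38 KO ones, and 7 of 11 tested were called lower and 2 higher. Of 15 markers of microglia and macrophages, 13 were tested and all 13 were called higher. The list summed to 94.8 and 109 FPKM in WT and 659 and 740 FPKM in CD38 KO. The filter takes the mean of all libraries, so some passed only through CD38 KO, such as Cx3cr1 (0.474 and 0.580 FPKM in WT, 6.41 and 6.35 in CD38 KO). Of the 2 below it, P2ry12 overlapped between genotypes (0.243 and 0.633 in WT, 0.528 and 0.606 in CD38 KO). Mrc1 was higher in CD38 KO (0.0787 and 0.115 against 0.258 and 0.218). Of all tested genes, 8.00% were called higher and 6.35% lower. In bulk RNA, fewer cells of a type and less RNA per cell cannot be told apart.

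Of the 10 members, 7 had a mean of at least 1 FPKM and were tested with limma on log2(FPKM + 1), with adjustment over all 13064 genes tested. A gene is called when its adjusted p is under 0.05. Gpc4 was called lower, and the other 6 were not called. That is 1 of 7, or 14.3%, where 14.4% of all tested genes were called in either direction and 6.35% were called lower. No member was called higher, and none had an unadjusted p under 0.05 in that direction, while 8.00% of all tested genes were called higher. In either direction, 3 of the 7 had an unadjusted p under 0.05, against 30.3% of all tested genes. All 3 were lower in CD38 KO, namely Thbs2, Thbs3 and Gpc4. Both libraries of one genotype lay above both of the other in 5 of the 7, 4 of them lower in CD38 KO, and 1 higher, where 59.9% of all tested genes were so separated (29.5% lower and 30.4% higher in CD38 KO). The median log2 change of the 7 was -0.14, against 0.00 for all tested genes, and the median size of the change was 0.14 against 0.12.

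**Figure D1:**
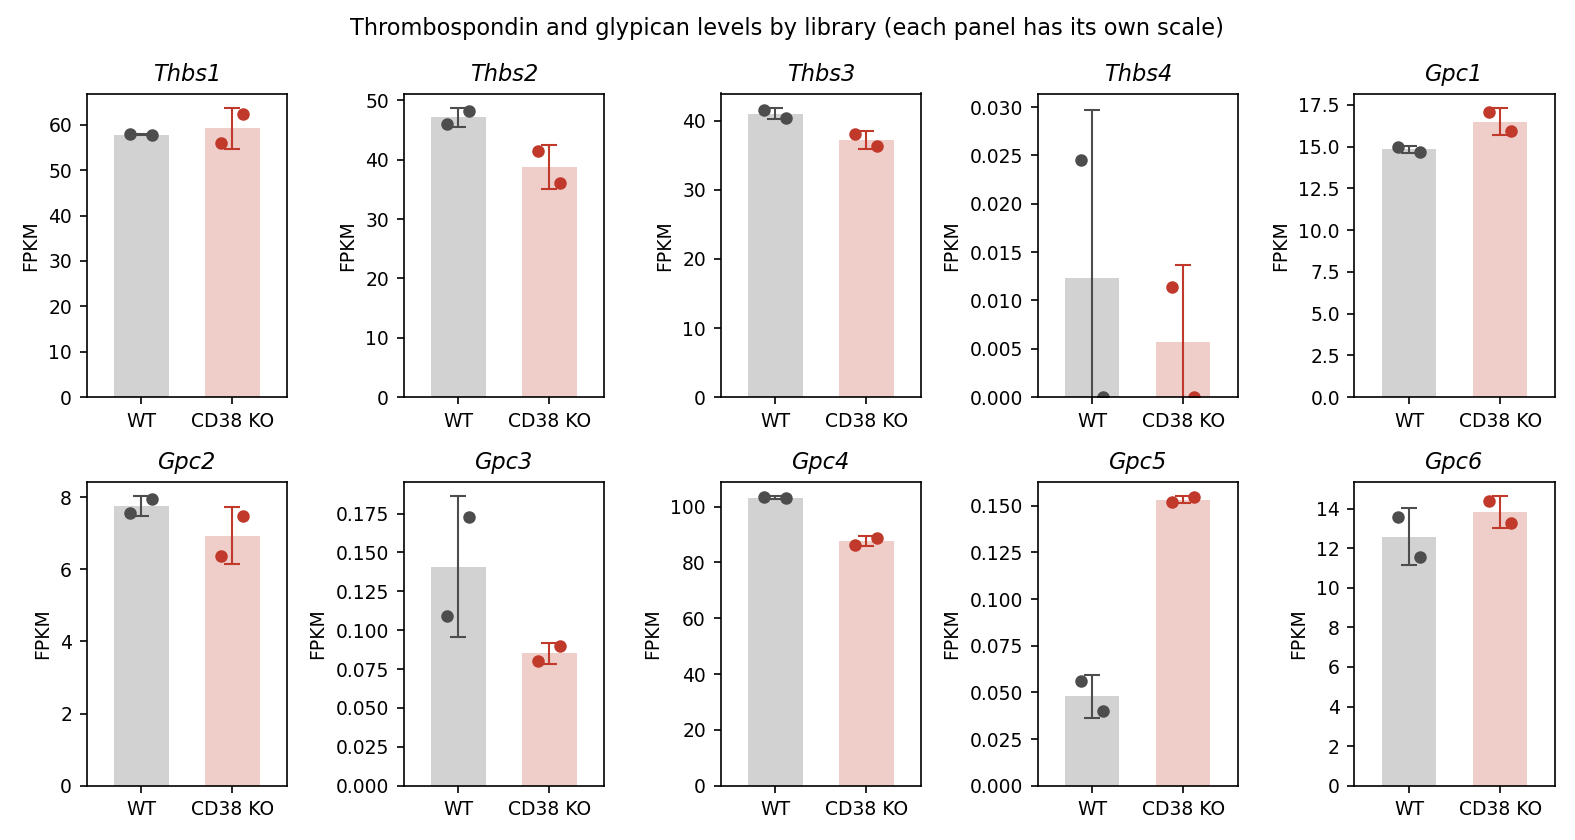
FPKM of each thrombospondin and glypican in the 2 WT and 2 CD38 KO libraries, 1 panel per gene with its own scale from 0. Points are libraries, bars are means and whiskers are SD. Gpc4 shows both CD38 KO libraries (86.3 and 88.8) below both WT libraries (103 in each), while Thbs4, Gpc3 and Gpc5 stay below 0.2 FPKM throughout.

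Thbs1, the most abundant thrombospondin, did not differ between the genotypes beyond the spread of the libraries. Thbs1 (ENSMUSG00000040152, GRCm38 chromosome 2, 118111876 to 118127133) measured 57.9 and 57.7 FPKM in the WT pair and 56.0 and 62.4 in the CD38 KO pair. The CD38 KO libraries lay on either side of the WT pair. The log2 change was 0.03 (SE 0.06, adjusted p = 0.769), and its 95% interval ran from -0.12 to 0.19, so these data leave room for a change of that size in either direction. Without CD38 KO 2 the sign turned, to -0.04.

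Thbs2 was lower in CD38 KO in these libraries but was not called. Thbs2 (ENSMUSG00000023885, chromosome 17, 14665500 to 14694235) stood at 46.0 (WT 1), 48.3 (WT 2), 41.5 (CD38 KO 1) and 36.1 FPKM (CD38 KO 2). The groups did not overlap, and CD38 KO 2 was the lowest of the 4. The ratio of means was 0.823, and the log2 change of -0.28 (SE 0.08, 95% interval -0.46 to -0.09) had an unadjusted p of 0.0115 and an adjusted p of 0.0661 by limma. Without CD38 KO 2 the log2 change was -0.18. A change at least that large was seen in 19.98% of all tested genes.

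Thbs3, a pentamer-forming member near the level of Thbs2, was not called either. Thbs3 (ENSMUSG00000028047, chromosome 3, 89215180 to 89226837) measured 41.6 and 40.5 FPKM in the WT pair and 38.1 and 36.4 in the CD38 KO pair. Both CD38 KO values were below both WT values, with a difference of -9.26% between the means, and the log2 change was -0.14 (SE 0.05, 95% interval -0.26 to -0.01, adjusted p = 0.134). The levels of Thbs2 and Thbs3 overlapped over the 4 libraries, with Thbs2 the higher in 3 of 4, whereas Thbs1 lay above both in every library.

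Thbs4, known from muscle, tendon and reactive astrocytes of the adult brain, was near the limit of detection in both genotypes. Thbs4 (ENSMUSG00000021702, chromosome 13, 92751590 to 92794818) was listed at 0.0246 FPKM in WT 1, at 0.0114 FPKM in CD38 KO 1 and at 0 in the other two. With the recovered depth these values stand for 2 fragments and 1 fragment, and a count of 0 allows up to 3 fragments, or 0.0350 FPKM in WT 2 and 0.0340 FPKM in CD38 KO 2. No difference in Thbs4 was detectable at this depth.

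Together the thrombospondins summed to 145 and 146 FPKM in WT libraries against 136 and 135 in CD38 KO ones. Thbs1 made up 39.6% ± 0.254 of the sum in WT and 43.8% ± 3.49 in CD38 KO (SD, n = 2 each). Thbs2 made up 32.3% ± 0.952 in WT and 28.7% ± 2.67 in CD38 KO, and Thbs3 28.1% and 27.5%. In CD38 KO 2 Thbs2 held 26.8% and Thbs1 46.3%, the lowest and the highest share of the 4 libraries. These shares are given without a test.

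The promoters of 1 expressed and 2 nearly silent members can be set beside these levels. Shown are the 250 bases before the RefSeq start (GRCm38.p6) of Thbs2, expressed at 43.0 FPKM on average, of Thbs4, which was close to 0, and of Gpc3, which was also close to 0. Each is 5′ to 3′ on the strand of its gene, all minus, at chr17:14694263-14694512, chr13:92794819-92795068 and chrX:52613975-52614224, with every CpG in capitals.
Thbs2: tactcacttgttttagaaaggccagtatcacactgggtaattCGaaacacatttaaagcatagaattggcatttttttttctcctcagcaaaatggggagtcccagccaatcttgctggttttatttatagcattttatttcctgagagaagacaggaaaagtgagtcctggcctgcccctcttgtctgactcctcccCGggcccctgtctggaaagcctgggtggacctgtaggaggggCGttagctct
Thbs4: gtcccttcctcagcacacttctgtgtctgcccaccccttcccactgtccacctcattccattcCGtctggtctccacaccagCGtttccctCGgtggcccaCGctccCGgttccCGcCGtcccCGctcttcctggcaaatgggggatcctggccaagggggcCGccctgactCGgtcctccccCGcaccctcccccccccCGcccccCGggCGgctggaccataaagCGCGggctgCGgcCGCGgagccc
Gpc3: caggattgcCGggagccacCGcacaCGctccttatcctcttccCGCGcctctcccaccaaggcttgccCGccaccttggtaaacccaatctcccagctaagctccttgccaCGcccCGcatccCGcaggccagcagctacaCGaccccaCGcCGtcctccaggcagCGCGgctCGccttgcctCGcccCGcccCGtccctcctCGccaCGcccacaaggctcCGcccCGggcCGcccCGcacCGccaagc
The Thbs2 window holds 3 CpG, the Thbs4 window 19 and the Gpc3 window 25, while the median of 32817 such windows in the table is 6. At least 3 CpG are found in 70.9% of windows, at least 19 in 19.7% and at least 25 in 10.7%. CpG reads the same on both strands. RefSeq windows were matched for 7 members, and the other 4 matched held 6 CpG (Thbs3), 12 (Gpc5), 18 (Gpc4) and 19 (Gpc2). All 250 bases of the Gpc4 window and 68 of the Gpc2 window lie in exons annotated by GENCODE M21, so those counts are in part or in full of exon sequence. Of these other 4, Gpc4, Thbs3 and Gpc2 averaged 95.4, 39.1 and 7.34 FPKM, and Gpc5 0.101 FPKM. The 3 printed windows do not stand for the families, and a link between CpG and level was not tested.

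Gpc4 was the most abundant glypican and the called member. Gpc4 (ENSMUSG00000031119, chromosome X, 52053021 to 52165252), whose annotation holds 1 transcript, measured 103 FPKM in either WT library, 86.3 in CD38 KO 1 and 88.8 in CD38 KO 2. Both CD38 KO libraries were below both WT libraries, with a difference of -15.1% between the means, and the spread within each genotype was small (SD 0.413 in WT and 1.77 in CD38 KO, n = 2 each). The log2 change was -0.23 (SE 0.04, 95% interval -0.34 to -0.13, adjusted p = 0.0196 by limma). A change at least that large was seen in 25.1% of all tested genes. Leaving out any 1 library ended the call, with log2 changes of -0.25 to -0.21. Such a fit leaves 1 library in a genotype, and the number of calls over all tested genes also fell in each. The loss is therefore not a trait of Gpc4 alone, and this bears equally on the other calls lost in such fits below. The Gpc4 call also ended without a filter (0.0562) and with moderation without a trend (0.0716). Over 14 alternatives Gpc4 was called in 7, among them a block that crosses the replicate numbers, chosen after seeing the data. Beside it, the summed astrocyte markers differed by -16.7% in CD38 KO and the summed microglia and macrophage markers were 6.87 times as high. The astrocyte sum leans on its most abundant gene, Glul (-27.6%), and its genes did not all move one way. Of 11 tested, 7 were called lower and 2 higher, against 6.35% and 8.00% of all tested genes. The part of these cells in the Gpc4 result was not tested.

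Gpc6, the other glypican known to recruit AMPA receptors, was not called. Gpc6 (ENSMUSG00000058571, chromosome 14, 116925315 to 117976544) measured 13.6 and 11.6 FPKM in the WT pair and 14.4 and 13.3 in the CD38 KO pair. The groups overlapped, since WT 1 lay above CD38 KO 2. The log2 change was 0.13 (SE 0.09, 95% interval -0.10 to 0.36, adjusted p = 0.405), and it was 0.02 without WT 2 and 0.24 without WT 1. Whether Gpc4 and Gpc6 changed differently was not tested.

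Gpc1 and Gpc2 were not called either. Gpc1 (ENSMUSG00000034220, chromosome 1, 92831645 to 92860779), a broadly expressed glypican of the brain, measured 15.0 and 14.7 FPKM in the WT pair and 17.1 and 15.9 in the CD38 KO pair. It was the only tested member with both CD38 KO libraries above both WT libraries, by 11.2% on average, with a log2 change of 0.14 (SE 0.06, 95% interval -0.01 to 0.30, adjusted p = 0.190). Gpc2 (ENSMUSG00000029510, chromosome 5, 138273655 to 138280005), known as a glypican of developing neurons, measured 7.56 and 7.94 FPKM in the WT pair and 6.38 and 7.49 in the CD38 KO pair. The groups were separated only by the gap between WT 1 and CD38 KO 2, and the log2 change was -0.14 (SE 0.09, 95% interval -0.38 to 0.09, adjusted p = 0.356). It was -0.04 without CD38 KO 1 and -0.25 without CD38 KO 2.

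**Figure D2:**
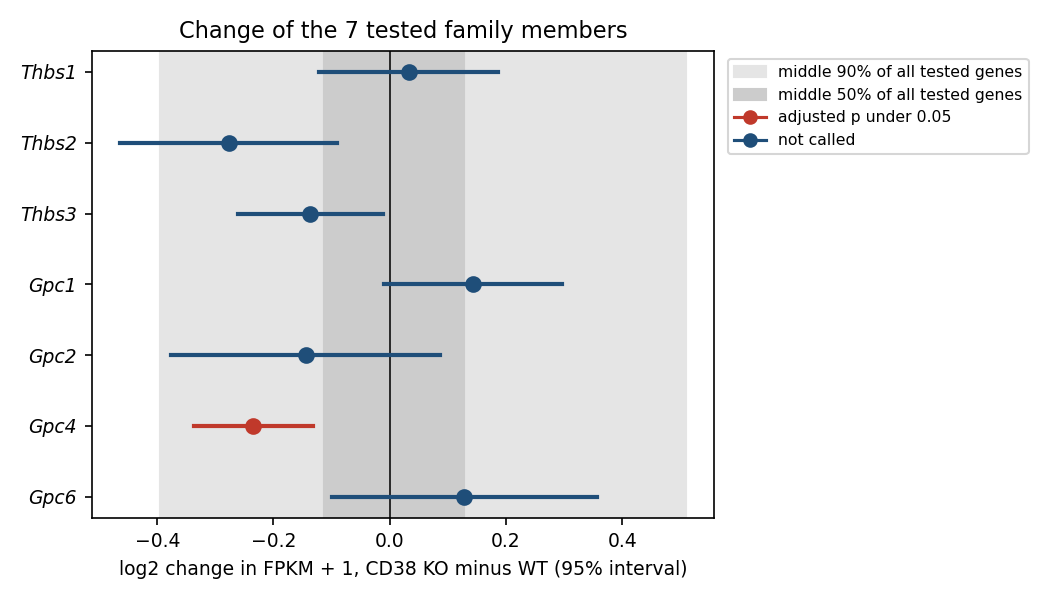
Log2 change in FPKM + 1, CD38 KO minus WT, with its 95% interval from limma for the 7 tested members, over bands that hold the middle 50% and 90% of all tested genes. Gpc4 (red, adjusted p = 0.0196) and Thbs2 (adjusted p = 0.0661) lie furthest below 0, and all 7 members lie inside the band of the middle 90%.

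Gpc3 and Gpc5, the neighbours of Gpc4 and Gpc6 on their chromosomes, were close to absent. Gpc3 (ENSMUSG00000055653, chromosome X, 52272426 to 52613950), a glypican of embryonic growth, lies 107.2 kb from Gpc4 and measured 0.109 and 0.173 FPKM in the WT pair and 0.0805 and 0.0899 in the CD38 KO pair. With the length of its longest coding transcript these values stand for about 6, 10, 5 and 5 fragments, fewer in both CD38 KO libraries than in both WT libraries. The ratio of CD38 KO to WT over summed fragments was 0.592 with an exact 95% interval of 0.240 to 1.39, which covers counting error only. No difference in Gpc3 was detectable at this depth.

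Gpc5 was read more often in CD38 KO, at a level far below 1 FPKM. Gpc5 (ENSMUSG00000022112, chromosome 14, 115092215 to 116525179), which lies 400.1 kb from Gpc6 and is known from astrocytes of the mature brain, measured 0.0560 and 0.0398 FPKM in the WT pair and 0.152 and 0.155 in the CD38 KO pair. These values stand for about 4, 3, 12 and 12 fragments, so both CD38 KO libraries held more than both WT libraries. The ratio over summed fragments was 3.25 (exact 95% interval 1.36 to 8.93, counting error only). Of the 4402 distinct stretches of 50 bases in Gpc5 transcripts, 64 also occur in other genes. Whether fragments of those genes entered these few counts was not tested. In the fit without a filter its log2 change was 0.14 (SE 0.03, unadjusted p = 0.00761, adjusted p = 0.102), and 2.78% of 26654 genes were called in that fit (1.61% higher and 1.17% lower). Gpc3 (-0.07, adjusted p = 0.452) and Thbs4 (-0.01, 0.850) were not called there either.

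In order of level, Gpc4 stood 6.08 times above Gpc1, which was 1.19 times above Gpc6, which was 1.80 times above Gpc2. This order held in each of the 4 libraries, and no neighbouring ranges overlapped down to Gpc2, which was 65.0 times above Gpc3. The ranges of Gpc3 and Gpc5 overlapped. The glypicans summed to 140 and 137 FPKM in WT libraries against 124 and 126 in CD38 KO ones. Gpc4 made up 74.5% ± 0.643 of the sum in WT and 70.0% ± 0.875 in CD38 KO (SD, n = 2 each), while Gpc1 made up 10.7% and 13.2% and Gpc6 9.08% and 11.1%. Both CD38 KO libraries thus held a smaller share of Gpc4 and a larger share of Gpc1 and Gpc6 than both WT libraries, given here without a test.

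**Figure D3:**
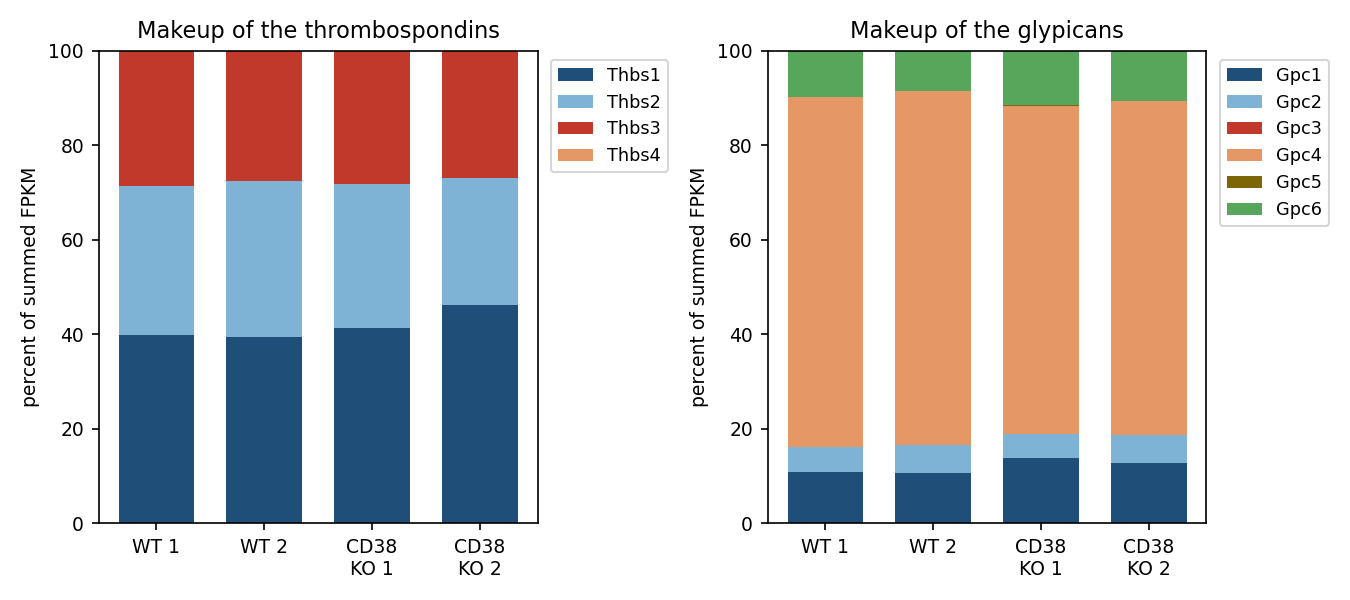
Share of the summed FPKM of each family held by each member, as percent, in the 4 libraries. Thbs1 holds 39.4% to 46.3% of the thrombospondins, above Thbs2 and Thbs3 in every library, Gpc4 holds 69.4% to 74.9% of the glypicans, and Thbs4, Gpc3 and Gpc5 are too small to see.

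Receptors and binding partners of thrombospondins were called in both directions. Of 16 listed genes 11 were tested, and 2 were called higher and 1 lower (27.3%, against 14.4% of all tested genes), with a median log2 change of -0.02. Cacna2d1, the subunit through which thrombospondins act on synapses, measured 2.64 and 2.63 FPKM in WT libraries against 2.90 and 2.31 in CD38 KO ones, with a log2 change of -0.02 (95% interval -0.32 to 0.28, adjusted p = 0.940). Cd36, a thrombospondin receptor and scavenger receptor of macrophages and endothelium, rose from 2.38 and 2.55 FPKM to 13.8 and 14.7 FPKM (log2 change 2.14, SE 0.08, adjusted p = 0.000102). Beside this rise, 13 of 15 microglia and macrophage markers were tested and all 13 were called higher, with the sums and limits given above. The 9 endothelial markers, all below the tested level, summed to 1.15 and 1.00 FPKM in WT libraries against 2.38 and 2.24 in CD38 KO ones, a ratio of 2.15. Of the 9, 4 were higher in both CD38 KO libraries than in both WT libraries and 1 was lower. Among all tested genes, 30.4% were so separated upward and 29.5% downward. The 9 lie below the tested level, for which the share is not given here, so the counts are not of like genes. The sum leans on Pecam1, the most abundant, at 0.542 and 0.214 FPKM in the WT pair and 1.39 and 1.10 in the CD38 KO pair. Kdr, the lower one, measured 0.181 and 0.160 FPKM in the WT pair and 0.0419 and 0.0896 in the CD38 KO pair. Cldn5 was at 0 but for WT 2 (0.0284). The part of those cells in the Cd36 result was not tested.

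Cd47 and Calr were the other called partners. Cd47, a receptor for Thbs1 that also marks cells against engulfment, rose from 52.7 and 54.1 FPKM to 62.9 and 61.4 FPKM (log2 change 0.21, SE 0.04, adjusted p = 0.0316), a call lost whichever library was left out (0.115 to 0.157). Calr encodes calreticulin, a chaperone that at the cell surface takes part in the response to Thbs1. It fell from 485 and 495 FPKM to 355 and 356 FPKM (log2 change -0.46, SE 0.04, adjusted p = 0.0015) and was called in each fit without 1 library. Its surface partner Lrp1 measured 123 and 119 FPKM in WT libraries against 114 and 109 in CD38 KO ones (adjusted p = 0.165).

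Relatives of thrombospondins were called in both directions. Of 30 genes with thrombospondin type I repeats or related to COMP, 21 were tested, with 3 called higher and 2 lower (23.8%, against 14.4% of all tested genes) and a median log2 change of 0.01. Comp, the cartilage member of the thrombospondin family, fell from 2.74 and 2.55 FPKM to 1.31 and 1.21 FPKM (log2 change -0.69, SE 0.11, adjusted p = 0.0161), a call lost whichever library was left out (up to 0.0797). Adgrb2, an adhesion receptor, fell by 26.3% of its WT mean to 26.0 FPKM (adjusted p = 0.00469), while its relative Adgrb1, a receptor for engulfment, rose by 23.3%, to 20.6 and 21.5 FPKM (0.0285). The matricellular growth factor genes Ccn3 and Ccn2 rose 3.83-fold to 8.42 FPKM (adjusted p = 0.000382) and 1.33-fold to 120 FPKM (0.00795). In fits without 1 library, Ccn3 was called each time, Adgrb1 not once (up to 0.155), Adgrb2 not without CD38 KO 1 (0.0521) or CD38 KO 2 (0.0583), and Ccn2, also lost without a filter (0.0616), not without WT 2 (0.0699) or CD38 KO 1 (0.0665).

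Enzymes that build and trim the heparan sulfate chains of glypicans were called in both directions. Of 29 listed genes 22 were tested, with 3 called higher and 1 lower (18.2%, against 14.4% of all tested genes), and a median log2 change of -0.01. Ndst1, which places the first sulfate groups on the chain, fell from 64.7 and 62.7 FPKM to 45.5 and 46.9 FPKM (log2 change -0.45, SE 0.05, adjusted p = 0.00313) and was called in each fit without 1 library. Ext1, a polymerase of the chain, measured 23.2 and 22.6 FPKM in WT libraries against 22.7 and 21.6 in CD38 KO ones (adjusted p = 0.648).

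The 3 called increases were Sulf1, Hs2st1 and Xylt2. Sulf1, a secreted sulfatase that removes sulfate from finished chains, rose from 4.69 and 5.30 FPKM to 9.36 and 7.60 FPKM (log2 change 0.66, SE 0.12, adjusted p = 0.0197). Its more abundant relative Sulf2 measured 155 and 147 FPKM in WT libraries against 132 and 138 in CD38 KO ones (adjusted p = 0.0825). The sulfotransferase gene Hs2st1 rose by 30.1% to 20.3 FPKM (adjusted p = 0.0211), and Xylt2, which attaches the first sugar, by 26.1% to 11.9 FPKM (0.0497). Leaving out any 1 library ended the calls of Sulf1, Hs2st1 and Xylt2, whose adjusted p then reached 0.122, 0.151 and 0.235.

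Among 9 genes for the release or cleavage of glypicans, all tested, 2 were called lower and 0 higher by limma (22.2%). Of all tested genes, 14.4% were called in either direction and 6.35% lower. An unadjusted p under 0.05 was found for 4 of the 9, against 30.3% of all tested genes. With so few genes, these counts do not set the list apart. Notum, a secreted enzyme that inactivates Wnt proteins and has been described to free glypicans from their anchor, fell from 19.3 and 18.9 FPKM to 13.4 and 11.3 FPKM. Its log2 change was -0.59 (SE 0.09, adjusted p = 0.0106), and both CD38 KO libraries were below both WT libraries. The call remained without CD38 KO 1 (0.0344) but ended without WT 1 (0.0801), WT 2 (0.0811) and CD38 KO 2 (0.0601), and without a filter (0.0778). Gdpd2, a surface phosphodiesterase of the family that cleaves such anchors, fell by 19.0% to 67.4 FPKM (adjusted p = 0.049), a call lost whichever library was left out (up to 0.211).

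Partners of glypicans at the cell surface form a short list. Of 10 listed genes 7 were tested, 0 were called in either direction by limma, and 1 had an unadjusted p under 0.05, where 14.4% and 30.3% of all tested genes did. With so few genes, this count does not set the list apart. The gene with the unadjusted p under 0.05 was Ptprs, a receptor phosphatase that binds heparan sulfate, at 133 and 132 FPKM in WT and 122 and 116 FPKM in CD38 KO (log2 change -0.16, SE 0.04, adjusted p = 0.0781). Its relative Ptprd measured 2.71 and 3.30 FPKM in WT libraries against 3.38 and 3.10 in CD38 KO ones (adjusted p = 0.668). Lrrtm4, a postsynaptic partner made by neurons, was at no more than 0.0729 FPKM in any library.

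Other heparan sulfate proteoglycans were called in both directions. All 11 were tested, 3 were called higher and 2 lower (45.5%, against 14.4% of all tested genes), and the median log2 change was -0.02. The syndecan Sdc1 rose by 27.6%, to 26.5 and 23.4 FPKM (adjusted p = 0.0362), the matrix collagen Col18a1 by 28.8% to 19.9 FPKM (0.0228) and the betaglycan gene Tgfbr3 by 57.9% to 10.3 FPKM (0.00469). Srgn, the proteoglycan of secretory granules, known from blood cells, fell from 14.9 and 13.9 FPKM to 5.78 and 4.77 FPKM (log2 change -1.30, SE 0.10, adjusted p = 0.00107) and was called in each fit without 1 library. The hyaluronan receptor Cd44 fell by 13.1% to 272 FPKM (adjusted p = 0.0473).

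Leaving out any 1 library ended the calls of Sdc1, Col18a1 and Cd44, whose adjusted p then reached 0.174, 0.145 and 0.193. Tgfbr3 was not called once CD38 KO 1 (0.0696) or CD38 KO 2 (0.0604) was left out. The most abundant syndecan, Sdc4, measured 282 and 284 FPKM in WT libraries against 330 and 306 in CD38 KO ones (adjusted p = 0.0837). The neural syndecan Sdc3 measured 67.5 and 67.2 FPKM in WT libraries against 68.0 and 65.3 in CD38 KO ones (adjusted p = 0.854). The matrix proteoglycans Hspg2 and Agrn had adjusted p of 0.0554 and 0.0797, each with both CD38 KO libraries below both WT libraries.

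**Figure D4:**
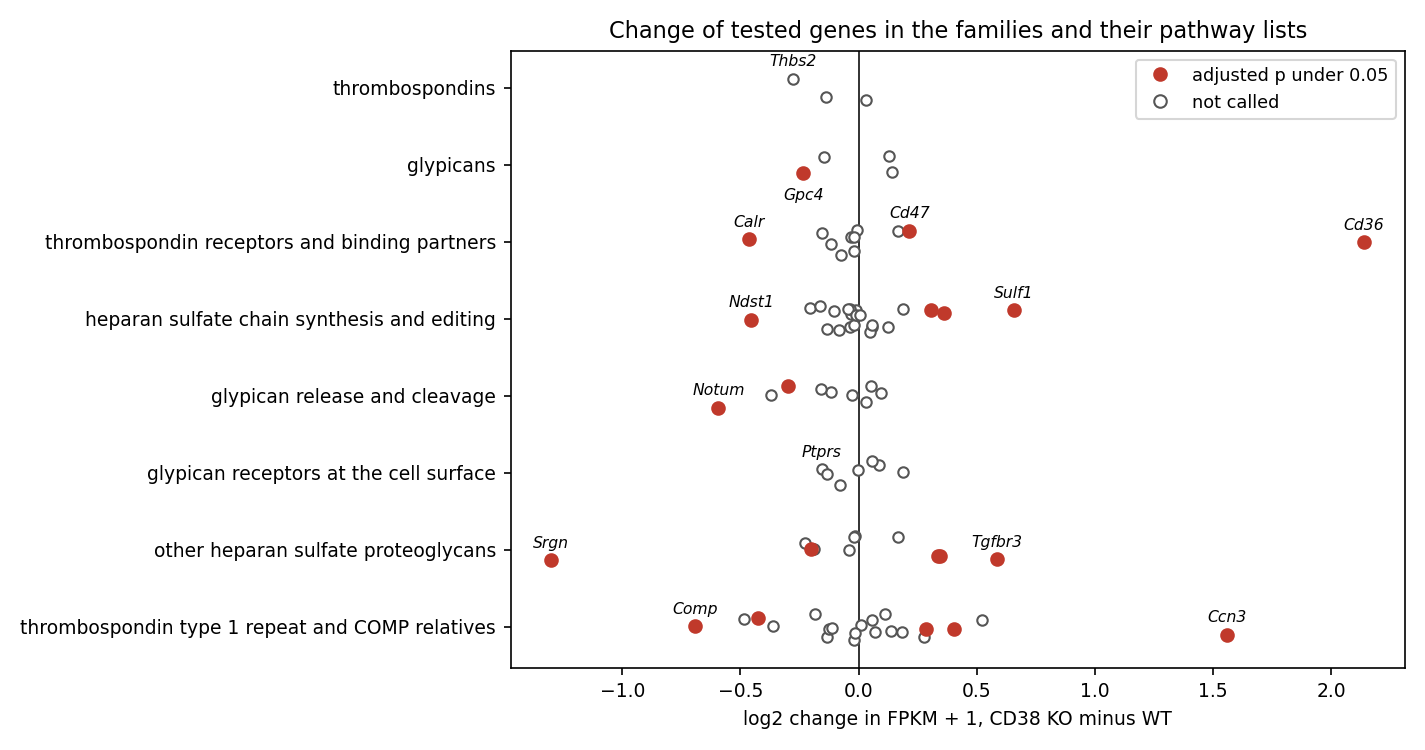
Log2 change in FPKM + 1, CD38 KO minus WT, of each tested gene in the families and in the 6 pathway lists, with called genes in red and the others open. Cd36 (2.14) and Ccn3 (1.56) lie furthest right and Srgn (-1.30) furthest left, while the members lie between -0.28 and 0.14.

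None of the 6 tested genes given here that lie next to the members, other members aside, was called. As 14.4% of all tested genes were called, a count over so few genes does not set the neighbours apart. Gpc4 is flanked by 1700080O16Rik, listed at 0 in every library, and by Gpc3. On the far side of Gpc3, Ccdc160 measured 1.25 and 1.63 FPKM in WT libraries against 2.12 and 2.29 in CD38 KO ones (adjusted p = 0.109), opposite in sign to Gpc4. Beside Thbs2, Wdr27 had a log2 change of 0.19 (adjusted p = 0.229) and Smoc2 was at 0.323 to 0.744 FPKM. Beside Thbs3, Muc1 (log2 change -0.20, adjusted p = 0.473) was not called, nor were Serinc5 and Mtx3 beside Thbs4 (0.591 and 0.404) or Stag3 beside Gpc2 (0.803). Rasgrp1 and Fsip1 beside Thbs1, Otos beside Gpc1, Tpm3-rs7 beside Gpc5 and Dct beside Gpc6 were below 1 FPKM in every library.

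Markers of the other cell types that such cultures can hold are given beside the members. Over all tested genes 8.00% were called higher and 6.35% lower, beside which the counts below stand. Fibroblast and meningeal markers, of cells known to make thrombospondins, summed to 49.5 and 61.1 FPKM in WT libraries against 78.1 and 52.6 in CD38 KO ones, so the groups overlapped. In that list 0 of 7 tested were called higher and 2 lower by limma, namely Ogn and Pdgfra. Ogn measured 19.1 and 18.1 FPKM in WT libraries against 12.6 and 15.2 in CD38 KO ones (adjusted p = 0.0484). Pdgfra had a log2 change of -1.07 (SE 0.17, adjusted p = 0.0149). Col1a1 measured 12.0 and 14.8 FPKM in WT libraries against 26.4 and 17.1 in CD38 KO ones and was not called (adjusted p = 0.0988). Slc22a6 was listed at 0 throughout. Mural cell markers summed to 70.0 and 75.6 FPKM in WT libraries against 91.7 and 105 in CD38 KO ones, with 1 of 4 tested called higher, namely Tagln, whose adjusted p of 0.0407 reached 0.198 with 1 library left out. Oligodendrocyte lineage markers summed to 195 and 202 FPKM in WT libraries against 165 and 178 in CD38 KO ones, with 1 of 6 called lower. Neuronal markers summed to 136 and 147 FPKM in WT libraries against 133 and 137 in CD38 KO ones. Most of the sum came from Gad1, called lower, and Stmn2, called higher. Tubb3 (10.1 to 14.1 FPKM) and Map2 (19.5 to 25.1 FPKM) were not called. Rbfox3, Snap25, Syt1, Dcx and Slc17a7 stayed at no more than 0.0652, 0.116, 0.120, 0.0620 and 0.304 FPKM. Gad2 and Slc17a6 were at or near 0. Ependymal markers summed to 89.98 and 93.2 FPKM in WT libraries against 103 and 104 in CD38 KO ones, with 3 of 5 called higher and 1 lower. The part of any of these cells in the levels of the thrombospondins and glypicans was not tested.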

How the data were processed

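RNA-seq of 4 libraries, 2 WT and 2 CD38 KO, was used as deposited by the authors in FPKM per gene, per the file headers. Per the submitters' processing notes, bcl2fastq 2.17 and STAR 2.7.0f were used along with Cufflinks 2.2.1, on GRCm38. Which annotation release and which scaling were applied is not given in the sources used here. A Cufflinks FPKM sums the isoforms of a gene. From a mean level of 1 FPKM upward, genes were tested on log2(FPKM + 1) by limma 3.58.1 (R 4.3.3), in a model of genotype alone with a trend in the moderation and Benjamini-Hochberg adjustment over 13064 genes. A fold on this scale understates the change of low genes, and ratios of FPKM use group means without the added 1. The fit was tested on simulated data. An exact permutation test of 2 against 2 cannot go below p = 0.3333, so none is given.

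Depth was estimated from single-transcript genes, where 91.8% to 92.4% of values under 10 fragments lay within 0.1 of a whole number, and intervals built on it cover counting error only. Positions, overlaps, shared stretches and coding sequences came from GENCODE M21, which matched 55226 of the IDs, and promoters from RefSeq (GRCm38.p6). Other steps used Python 3.11.15 (pandas 2.3.3, numpy 2.4.6, biopython 1.88, scipy 1.17.1, matplotlib 3.10.9). The members and lists were chosen with earlier results of these data known. Genes named were the members, Cd38, up to 4 called genes of smallest p in each of 6 pathway lists, a fixed set of partners, the 2 most abundant genes of each of 8 marker lists and the nearest protein-coding genes, of which 1 is not reported here. Adgrb1, Cd44, Gjb6, Cldn5, Slc22a6, Pdgfra, Gad2 and Slc17a6 lie outside this rule and were named after their values were seen. Alternatives were other added values, filters, scalings and moderation, the replicate block and each library left out. A block that crosses the replicate numbers was added after seeing the data.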

Additional observations from a re-analysis of the deposited data

How the results depend on the processing

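With 2 libraries per genotype, the number of called genes depends on every library. Of all genes, 1045 were called higher and 830 lower. Without a filter these were 430 and 312, and with the replicate block 610 and 427. In fits without 1 library they were 306 to 458 higher and 225 to 284 lower, which take the spread of the lone library from the other pair. The titles give both genotypes replicate numbers 1 and 2, but no label says that a number marks a shared animal or day, and deviations of same-numbered libraries had r = -0.16 over genes. A block that crosses the numbers, chosen after seeing the data, gave 1102 higher and 859 lower genes.

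Among the members, 1 was called lower and 0 higher. Gpc4 had an adjusted p of 0.0599 with the replicate block. The count of lower members fell to 0 without a filter, with the replicate block and with moderation without a trend, was 0 in each fit without 1 library (0 to 0), and was 2 with the crossed block, where Thbs2 (0.0309) joined Gpc4. Over the 7 tested members and 14 alternatives each, the direction and call were kept in 89 cases, 7 calls were lost, 1 was gained and 1 sign turned. The sign that turned was that of Thbs1, whose log2 change ran from -0.0436 to 0.108 in fits without 1 library and was negative without CD38 KO 2. Other signs that turned, all in genes not called, are given with their range over those fits: Cacna2d1 (-0.137 to 0.101) and Sdc3 (-0.0442 to 0.0137) without CD38 KO 2, Ptprd (-0.0202 to 0.190) without WT 1, the mural marker Notch3 (-0.0259 to 0.0635) without WT 2, and Stag3 (-0.177 to 0.377) without WT 1 or CD38 KO 2 (-0.0590). The cause was not tested. Thbs4, Gpc3 and Gpc5 rest on 24 or fewer fragments per genotype, and depth limits what can be said of them.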
